A study of Homo sapiens with 15 samples.

Results

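The genes described here are 10 hepatocyte secretory and fetal liver genes: ALB, AFP, TTR, TF, SERPINA1, AHSG, GPC3, RBP4, AMBP and IGF2. They were chosen by symbol as abundant products of hepatocytes and fetal liver, and all 10 were found among the 41412 rows of the deposited count matrix and passed the filter that left 18380 genes for testing. Counts came from HepG2, an established wild-type line from a human hepatocellular carcinoma, in 5 groups of 3 labelled biological replicates. The study asked how the cells respond to reporter mRNA (eGFP, a green fluorescent protein) whose treatment with a reagent coded CR-3 is called cloaking. One group was untransfected. The others received 1 µg of eGFP mRNA through the NanoLNP transfection reagent. That mRNA was non-cloaked, weak-cloaked (0.1 M CR-3 for 0.5 h at 25 °C), medium-cloaked (0.5 M for 1 h at 30 °C) or strong-cloaked (1 M for 2 h at 37 °C). Concentration, time and temperature changed together between grades, so their effects cannot be told apart. All cells were lysed 48 h after transfection. No group with the reagent alone was analysed here, so carrier and mRNA cannot be told apart in comparisons with untransfected cells.

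Hepatocytes secrete most plasma proteins, which enter the endoplasmic reticulum with a signal peptide and leave through the Golgi. Albumin (ALB) is the main carrier of plasma in the adult, and its neighbour on the chromosome, alpha-fetoprotein (AFP), is its fetal counterpart, silenced after birth and often switched on again in liver cancer. Hepatocyte nuclear factors of the HNF4, FOXA and C/EBP families drive many of these genes. Insulin-like growth factor 2 (IGF2) is a fetal growth factor of the liver, expressed from an imprinted domain that it shares with the noncoding RNA H19, and glypican 3 (GPC3) is a cell surface proteoglycan used as a marker of liver cancer.

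Sequence before the RefSeq starts of ALB and AFP is shown because these genes are the adult and fetal members of 1 chromosomal pair. The results also set these genes side by side. The RefSeq promoter table (GRCh38.p14) held 11 windows for 7 of the 10 members, and TTR, GPC3 and IGF2 were not in it. The CCAAT box, a common promoter element bound by NF-Y, was searched as the letters CCAAT on both strands in the 250 bases before each start. Capitals mark the match, which reads ATTGG where it lies on the opposite strand.
ALB: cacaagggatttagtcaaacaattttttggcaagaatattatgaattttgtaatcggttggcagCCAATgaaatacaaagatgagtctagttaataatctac
AFP: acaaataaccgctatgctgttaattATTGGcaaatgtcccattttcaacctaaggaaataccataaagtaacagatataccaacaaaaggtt
The ALB stretch is chr4:73404137-73404238 on the + strand and covers bases 150 to 49 before the start, with the match beginning 86 bases before it. A second ALB match, on the opposite strand 44 bases before the start, lies outside the printed stretch. The AFP stretch is chr4:73436071-73436162 on the + strand and covers bases 150 to 59, with the match on the opposite strand beginning 125 bases before the start. CCAAT was found in 5 of the 11 member windows (ALB, AFP, TF, AMBP and RBP4) and in 32% of all 35116 windows. These matches describe letters and are not evidence of binding.

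Library totals ran from 57128519 to 78548789 counts, and levels below are counts per 1000000 (CPM) of libraries scaled by the trimmed mean of M values (TMM). TMM factors were 1.126 to 1.15 in untransfected libraries. They were 0.9231 to 1.029 in 11 transfected libraries, and 1.108 in weak-cloaked replicate 1. That library stood near the untransfected ones for several members, so results that rest on it are given with and without it. Without TMM, scaling by library totals moved the median log2 fold change of all genes between transfected and untransfected cells by -0.225. Absolute direction for a gene with a small difference therefore depends on the scaling. All 10 hepatocyte markers were detected, each above 1 CPM in every library. Their summed CPM of library totals was 8795 to 9018 in untransfected and 7475 to 7995 in transfected libraries. These sums were not scaled by TMM. With TMM the median log2 fold change of these markers over all transfected groups was -0.02, beside -0.05 for all genes. Markers of other cell types were mostly absent: PTPRC stayed at or below 0.107 CPM of library totals, and MS4A1, EMCN, THY1 and TP63 had no counts. In bulk RNA, fewer cells of a type and less RNA per cell cannot be told apart.

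Together the 10 genes took 2.288% to 2.475% of counts in untransfected libraries and 2.203% to 2.809% in transfected ones. Per kilobase of coding sequence, IGF2 was highest in untransfected cells, with a mean of 7222 CPM per kb. ALB (3203), SERPINA1 (3095) and AHSG (3075) followed on the same scale, with overlapping replicates. RBP4 (1471) and TF (1235) also overlapped, and AMBP (449), AFP (142), TTR (12.0) and GPC3 (6.26) came last. The first place of IGF2 rests on its 540 nt of coding sequence. Per kilobase of the longest annotated transcript, which is 5585 nt for IGF2, ALB led at 2586 CPM per kb, followed by AHSG at 1979 and SERPINA1 at 1099, with IGF2 at 698. TF was at 126 on this scale, its longest annotated transcript being 20602 nt. TTR and GPC3 were the 2 lowest by either length, so their counts were low in these libraries. Whether reads of these genes were lost in counting was not tested.

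**Figure D1:**
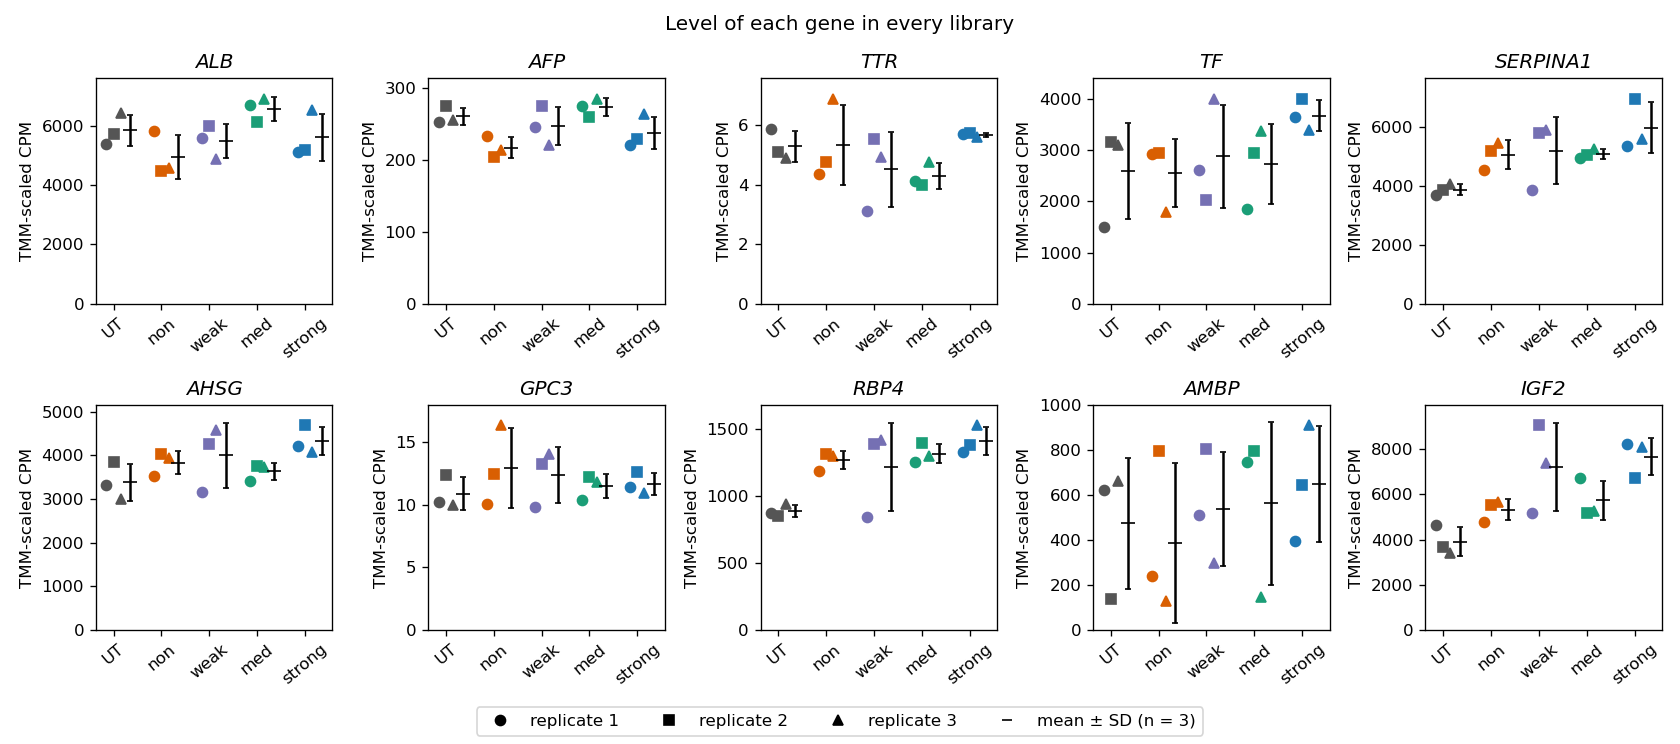
Level of each of the 10 genes in every library, in TMM-scaled CPM on linear axes that start at 0, with the 3 replicates of each of the 5 groups as points and the mean ± SD beside them. IGF2 lies above the untransfected libraries in all 12 transfected libraries, while AMBP spreads over a 7.121-fold range across the 15 libraries.

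With TMM scaling, transfected cells as a whole held more IGF2, RBP4 and SERPINA1 mRNA than untransfected cells, and no member was called lower. At an adjusted p below 0.05 over all 18380 genes, 3 of 10 members were called higher. Of all genes tested, 23.1% were called in this comparison, 10.4% higher and 12.7% lower. The median log2 fold change was 0.17 over the members and -0.05 over all genes. IGF2 was also the 1 member whose groups did not overlap, where 10.9% of all genes had such a separation.

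IGF2 (chr11:2129112-2149603, - strand, GRCh38) had 4633, 3660 and 3407 CPM in the untransfected replicates. Non-cloaked replicates had 4783, 5541 and 5647 CPM. Weak-cloaked replicates had 5195, 9047 and 7368 CPM. Every one of these 6 transfected libraries lay above the highest untransfected library. Medium-cloaked replicates had 6740, 5194 and 5262 CPM. Strong-cloaked replicates had 8210, 6722 and 8072 CPM. Over the 12 transfected libraries the lowest was 4783, the median 6185 and the highest 9047 CPM, all above untransfected cells. The log2 fold change of all transfected groups was 0.72 ± 0.15 (SE), or 1.64-fold with a 95% interval of 1.31 to 2.07, at an adjusted p of 0.0067 in edgeR. By group it was 0.89 ± 0.19 for weak cloaking (adjusted p = 0.024) and 0.98 ± 0.19 for strong cloaking (adjusted p = 0.0087). It was 0.56 ± 0.19 for medium cloaking (adjusted p = 0.063) and 0.45 ± 0.19 for non-cloaked mRNA (adjusted p = 0.14), neither of which was called. The weak-cloaked call was lost when any of 4 libraries was left out. The adjusted p was 0.092 without untransfected replicate 2, 0.072 without untransfected replicate 3, 0.12 without weak-cloaked replicate 2 and 0.094 without weak-cloaked replicate 3. Without weak-cloaked replicate 1 it was 1.07 ± 0.16 (adjusted p = 0.0011).

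RBP4 (chr10:93591687-93601744, - strand) encodes the plasma carrier of retinol. It had 873, 849 and 938 CPM in untransfected replicates. It had 1188, 1316 and 1299 CPM with non-cloaked mRNA and 840, 1384 and 1420 CPM with weak-cloaked mRNA. Weak-cloaked replicate 1 lay below the untransfected range, and its group mates lay well above it. Medium-cloaked replicates had 1256, 1395 and 1294 CPM. Strong-cloaked replicates had 1324, 1381 and 1526 CPM. Of the 12 transfected libraries 11 exceeded the highest untransfected one. RBP4 rose by 0.55 ± 0.13 (SE) in log2 over all transfected groups, or 1.47-fold, with an adjusted p of 0.0094. Without untransfected replicate 2 the adjusted p was 0.051. It was called with medium-cloaked mRNA (0.57 ± 0.16, adjusted p = 0.031) and strong-cloaked mRNA (0.67 ± 0.16, adjusted p = 0.017). With non-cloaked mRNA it was 0.52 ± 0.16 at an adjusted p of 0.062. The medium-cloaked call was lost on leaving out any of 5 libraries: untransfected replicate 1 (0.086) or 2 (0.093), or medium-cloaked replicate 1 (0.062), 2 (0.11) or 3 (0.081), as adjusted p. The strong-cloaked call was lost without untransfected replicate 1 (0.052) or 2 (0.061) or strong-cloaked replicate 3 (0.067).

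SERPINA1 (chr14:94376747-94390693, - strand) encodes alpha-1 antitrypsin, the plasma inhibitor of neutrophil elastase. Its level was 3701, 3867 and 4074 CPM in untransfected replicates. It was 4538, 5204 and 5481 CPM with non-cloaked mRNA and 3887, 5799 and 5918 CPM with weak-cloaked mRNA. Weak-cloaked replicate 1 was again the 1 transfected library that did not exceed the untransfected ones. Medium-cloaked replicates had 4946, 5069 and 5276 CPM. Strong-cloaked replicates had 5371, 6973 and 5623 CPM. Over all transfected groups SERPINA1 rose by 0.46 ± 0.12 in log2 (adjusted p = 0.017), and by 0.63 ± 0.15 with strong-cloaked mRNA (adjusted p = 0.018). With non-cloaked, weak-cloaked and medium-cloaked mRNA it was 0.39 ± 0.15, 0.42 ± 0.15 and 0.39 ± 0.15, none of them called. Without weak-cloaked replicate 1 each was called (adjusted p = 0.018, 0.0026 and 0.011). The call over all groups was lost without untransfected replicate 1 (adjusted p = 0.075) or 2 (0.066). The strong-cloaked call was lost without untransfected replicate 1 (0.058) or 2 (0.057) or strong-cloaked replicate 2 (0.075). With scaling by library totals the difference over all groups was 0.23 ± 0.08 and not called (adjusted p = 0.06).

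Without weak-cloaked replicate 1, the weak-cloaked group had 4 members called against untransfected cells in place of 1. They were IGF2, RBP4 (0.66 ± 0.08, adjusted p = 0.00054), SERPINA1 (0.59 ± 0.11, adjusted p = 0.0026) and AHSG (0.38 ± 0.10, adjusted p = 0.022). The comparison of all transfected groups then also had 4 calls, AHSG being added at 0.25 (adjusted p = 0.024). Calls were also gained in the groups that do not hold this library. With non-cloaked mRNA these were RBP4 (adjusted p = 0.0018) and SERPINA1 (0.018). With medium cloaking they were SERPINA1 (0.011) and IGF2 (0.016), and with strong cloaking AHSG (0.019). Calls over all genes rose as well, from 605 to 4007 for weak cloaking and from 4242 to 5938 over all transfected groups. They rose from 1195 to 3107 for non-cloaked, from 2524 to 3789 for medium-cloaked and from 2776 to 4191 for strong-cloaked mRNA. The library was set apart for values near the untransfected ones, so leaving it out tends to widen the differences that include it. In the other groups the SE could fall with little change in the difference. RBP4 with non-cloaked mRNA went from 0.52 ± 0.16 to 0.51 ± 0.08.

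ALB and AFP, the adult and fetal carriers, stayed near their untransfected levels when libraries were TMM-scaled. ALB (chr4:73397114-73421412, + strand) had 5395, 5723 and 6439 CPM in untransfected replicates. With non-cloaked mRNA it had 5826, 4494 and 4586 CPM, and with weak-cloaked mRNA 5595, 6002 and 4877 CPM. The non-cloaked libraries reached below the untransfected range, with 1 inside it. Medium-cloaked replicates had 6707, 6122 and 6915 CPM. Strong-cloaked replicates had 5131, 5179 and 6526 CPM. Over all transfected groups the log2 difference was -0.05 ± 0.10, with a 95% interval of -0.28 to 0.17 (adjusted p = 0.75).

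AFP (chr4:73431138-73456174, + strand) lies 9725 bp beyond ALB. It had 252, 274 and 255 CPM in untransfected replicates. With non-cloaked mRNA it had 233, 204 and 214 CPM, all below the untransfected range. Weak-cloaked replicates had 246, 274 and 220 CPM. Medium-cloaked replicates had 275, 260 and 285 CPM. Strong-cloaked replicates had 221, 229 and 263 CPM. The groups other than the non-cloaked one overlapped untransfected cells. The log2 difference was -0.10 ± 0.08 over all groups (interval -0.28 to 0.08, adjusted p = 0.41) and -0.26 ± 0.11 for non-cloaked mRNA (adjusted p = 0.13). The sign and the call depended on the correction. With library totals AFP was -0.33 ± 0.09 over all groups and called lower (adjusted p = 0.016), as it was for non-cloaked (-0.46, adjusted p = 0.04) and strong-cloaked mRNA (-0.41, adjusted p = 0.029). With offsets for transcript length and GC content it was 0.16 (adjusted p = 0.29). ALB likewise moved from -0.28 (adjusted p = 0.076) to 0.14 (adjusted p = 0.3) between these settings.

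AFP was among the steadiest genes between replicates. Its within-group SD was 0.11 on the log2 scale, at the 5.9th percentile of the 9913 tested genes with a mean of at least 5 CPM, whose median was 0.237. For ALB it was 0.162. Across the 15 libraries, the genes whose log2 CPM followed ALB most closely were PANK3 (Pearson r = 0.935), RLIM (0.927) and ONECUT2 (0.917). Those closest to AFP were LUC7L3 (0.918), ALB (0.895) and DNM1L (0.888). These correlations were the highest among 11872 genes, come from libraries that share groups and scaling, and are given as a description.

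TF (chr3:133745956-133796640, + strand) encodes transferrin, the plasma carrier of iron, and varied widely between replicates. It had 1503, 3160 and 3098 CPM in untransfected replicates. It had 2918, 2952 and 1787 CPM with non-cloaked mRNA and 2606, 2035 and 3993 CPM with weak-cloaked mRNA. One untransfected and one non-cloaked library stood well below the others of their group, and one weak-cloaked library stood above. Medium-cloaked replicates had 1853, 2943 and 3382 CPM. Strong-cloaked replicates had 3640, 4001 and 3387 CPM, all above every untransfected library. The log2 difference for strong cloaking was 0.51 ± 0.32, with an interval of -0.19 to 1.20 (adjusted p = 0.3), and over all groups it was 0.18 ± 0.26 (adjusted p = 0.66). SRPRB overlaps TF on the same strand and had 47 to 73 CPM of library totals.

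AMBP (chr9:114060127-114078472, - strand) encodes the precursor of alpha-1-microglobulin and bikunin. It had 623, 137 and 663 CPM in untransfected replicates. It had 240, 795 and 128 CPM with non-cloaked mRNA and 513, 804 and 300 CPM with weak-cloaked mRNA. Medium-cloaked replicates had 748, 797 and 147 CPM. Strong-cloaked replicates had 394, 645 and 911 CPM. Low and high libraries thus occurred within the same group, in untransfected cells as well. The within-group SD of 1.117 on the log2 scale lay at the 98.7th percentile of the same 9913 genes. It left an interval of -1.18 to 1.48 around the log2 difference over all groups (0.15 ± 0.61, adjusted p = 0.89), whose upper end is 2.79-fold. Counting error is small beside this, as AMBP had 7495 to 58741 counts per library. The lowest AMBP and the lowest TF library of a group were the same only in the non-cloaked group (replicate 3). The neighbours of AMBP, ZNF618 and KIF12, were not called (adjusted p = 0.6 and 0.88).

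AHSG (chr3:186612923-186621318, + strand) encodes fetuin-A, which binds calcium phosphate in plasma. Untransfected replicates had 3315, 3838 and 3005 CPM, and strong-cloaked replicates had 4211, 4686 and 4077 CPM without overlap. Non-cloaked replicates had 3525, 4030 and 3946 CPM. Weak-cloaked replicates had 3163, 4254 and 4577 CPM. Medium-cloaked replicates had 3404, 3749 and 3737 CPM. The medium-cloaked libraries lay inside the untransfected range. The strong-cloaked difference of 0.35 ± 0.13 in log2 was not called (adjusted p = 0.09), nor was that over all groups (0.22 ± 0.11, adjusted p = 0.16), which was -0.01 with library totals.

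TTR (chr18:31557010-31599021, + strand) encodes transthyretin, the thyroxine carrier that also holds retinol-binding protein in plasma. It had 196 to 483 counts per library. Its CPM was 5.87, 5.10 and 4.89 in untransfected replicates and 3.10 to 6.88 in transfected ones, with a median of 4.85. Transfected libraries lay on both sides of the untransfected range, and the log2 difference was -0.10 ± 0.18 (interval -0.49 to 0.28, adjusted p = 0.72). The 3 medium-cloaked libraries lay below every untransfected one, at 4.11, 3.98 and 4.77 CPM, but the difference of -0.30 ± 0.23 was not called (adjusted p = 0.41). GPC3 (chrX:133535745-133985895, - strand) had 621 to 1085 counts per library. Its CPM was 10.3, 12.4 and 9.99 in untransfected replicates and 9.81 to 16.4 in transfected ones, with a median of 12.0 (log2 difference 0.15 ± 0.15, adjusted p = 0.52).

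**Figure D2:**
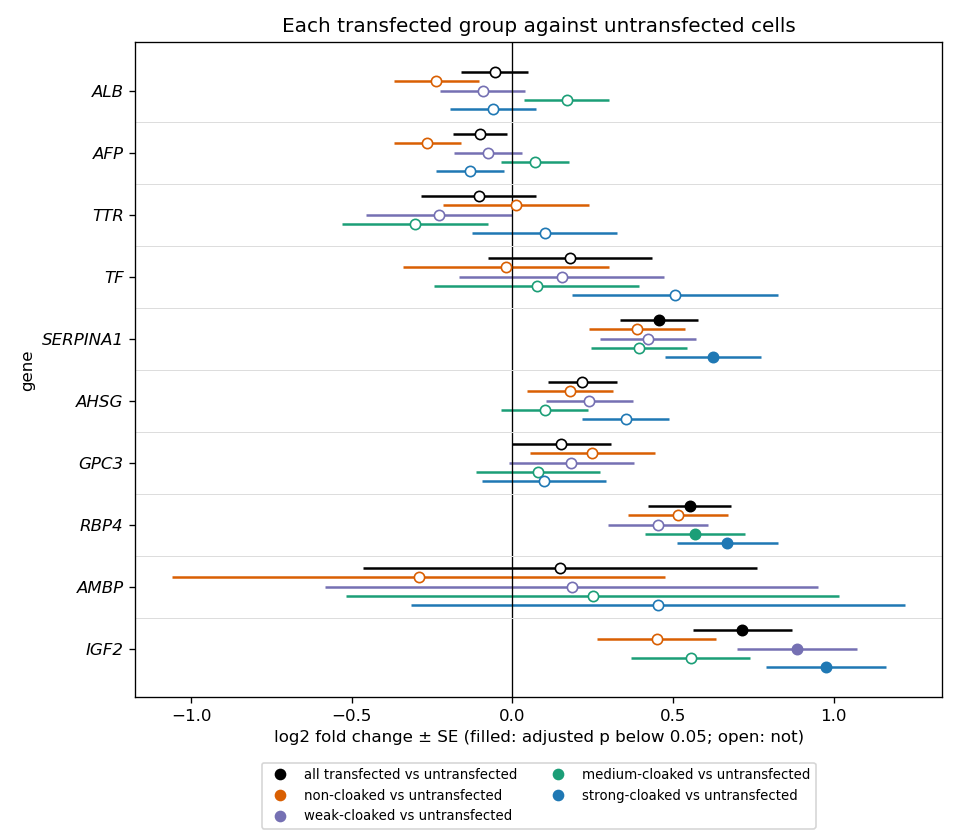
Log2 fold change of each of the 10 genes in each transfected group and in all transfected groups against untransfected cells on the x axis, with SE bars and called values filled. IGF2, RBP4 and SERPINA1 lie above 0 in every group, ALB and AFP lie near 0, and AMBP has the widest bars.

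By grade, strong-cloaked mRNA had 3 members called against untransfected cells (IGF2, RBP4 and SERPINA1), where 15.1% of all genes were called and 7.99% were called higher. Weak-cloaked mRNA had 1, IGF2, where 3.29% of all genes were called and 2.11% higher. Medium-cloaked mRNA had 1, RBP4, where 13.7% were called and 6.25% higher. Non-cloaked mRNA had 0, where 6.5% were called, although 4 members (AFP, SERPINA1, RBP4 and IGF2) had an unadjusted p below 0.05. DESeq2 called 1 there, RBP4. Leaving out weak-cloaked replicate 1 gave 2 there, RBP4 and SERPINA1, where 3107 of all genes were called. Groups did not overlap for 5 members with strong cloaking (40.3% of all genes), 4 with medium (41.5%), 1 with weak (21.2%) and 4 with non-cloaked mRNA (34.6%). These 4 comparisons share the untransfected libraries, as those below share the non-cloaked ones. A call in one grade and not in another does not show that the grades differ, which is tested next.

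Against the non-cloaked group, which received the same mRNA and reagent without cloaking, no member was called at any grade in edgeR or in DESeq2. In edgeR all genes gave 1 call for weak cloaking (0.00544%), 0 for medium (0%) and 0 for strong (0%). DESeq2 gave 21, 76 and 15 calls over all genes. The unadjusted p was below 0.05 for 1 member with weak cloaking, 2 with medium and 1 with strong. An F test over the 4 transfected groups called 0 members and 1 gene in all (0.00544%), and the unadjusted p was below 0.05 for IGF2 (0.0378) and AFP (0.0466), both with an adjusted p of 0.99.

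ALB and AFP had their highest group means with medium-cloaked mRNA, at 6581 ± 411 and 273 ± 12.4 CPM (SD, n = 3). In the non-cloaked group they had their lowest, at 4969 ± 744 and 217 ± 14.7 CPM. The 3 medium-cloaked libraries lay above the 3 non-cloaked ones for both genes, a separation that 22.2% of all genes showed. For ALB the log2 difference was 0.41 ± 0.13 (interval 0.12 to 0.69), with an unadjusted p of 0.00894 and an adjusted p of 0.47. For AFP it was 0.33 ± 0.11 (interval 0.11 to 0.56), with an unadjusted p of 0.00704 and an adjusted p of 0.47. Neither passed correction over all genes. The same difference was 0.18 ± 0.13 for ALB and 0.13 ± 0.11 for AFP with strong cloaking. Medium against strong cloaking was not tested.

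IGF2 was 1.44-fold the non-cloaked level with strong-cloaked mRNA, with an interval of 1.09 to 1.90. The log2 difference was 0.53 ± 0.19, the unadjusted p was 0.0136 and the adjusted p was 1. With weak cloaking it was 0.44 ± 0.19 (unadjusted p = 0.0345, adjusted p = 0.97), and with medium cloaking 0.11 ± 0.19 (adjusted p = 0.9). The medium-cloaked group was thus the one nearest to the non-cloaked level. With strong cloaking 4 members did not overlap the non-cloaked group (10% of all genes), namely IGF2, RBP4, TF (0.53 ± 0.32) and AHSG (0.17 ± 0.13). Apart from ALB and AFP with medium cloaking and IGF2 with weak and strong cloaking, all intervals against the non-cloaked group spanned 0.

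**Figure D3:**
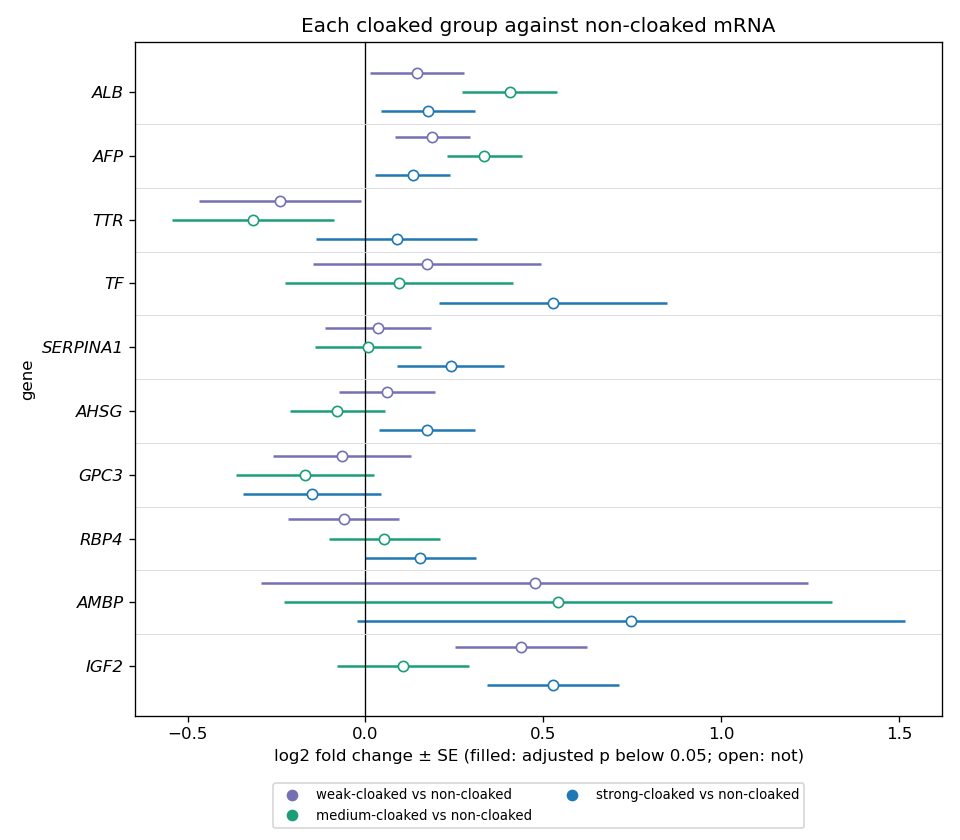
Log2 fold change of each of the 10 genes in the weak-, medium- and strong-cloaked groups against the non-cloaked group, on the x axis, with SE bars. All points are open, since no value passed the adjusted threshold, and for ALB and AFP the medium-cloaked point lies to the right of the other 2 grades (0.41 and 0.33).

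The wider set of plasma carriers, binding proteins and serpins had 4 of 30 tested genes higher and 2 lower in transfected cells, with a median log2 fold change of 0.19. SERPINA3, the acute-phase inhibitor alpha-1-antichymotrypsin, rose by 0.88 ± 0.18, from 71.3 ± 13.0 to 132 ± 23.3 CPM (SD, n = 3 and 12). VTN, the adhesive plasma protein vitronectin, rose by 0.59 ± 0.14 and AZGP1, zinc-alpha-2-glycoprotein, by 0.70 ± 0.19. KNG1, the kininogen, fell by 0.74 ± 0.15 to 7.46 CPM, a call lost with length and GC offsets (-0.43, adjusted p = 0.064). With library totals the list had 2 higher and 5 lower and a median of -0.04, and AZGP1 was not called (adjusted p = 0.061). It had 7 higher without weak-cloaked replicate 1 and 1 higher without untransfected replicate 1, and 1 lower without untransfected replicate 1, 2 or 3. Calls over all genes moved as well, from 4242 to 5938 without weak-cloaked replicate 1 and to 2148 without untransfected replicate 2. These were the highest and lowest of the 15 fits that left out 1 library. With length and GC offsets 4457 of all genes were called. With library totals all genes had 945 higher and 4358 lower, with a median of -0.28. Counts and medians by setting, of this list and those below, are to be read beside these values. Next to SERPINA1, SERPINA11 was lower by -0.65 ± 0.11 (adjusted p = 0.0024) and SERPINA6 was not called (0.59 ± 0.38, adjusted p = 0.29).

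Around IGF2, the IGF axis had 4 of 16 genes higher and 3 lower, with a median of 0.12. The binding proteins, which hold IGFs in the circulation and at the cell surface, moved in both directions. IGFBP1 fell by 1.63 ± 0.16 in log2, from 1275 ± 189 CPM in untransfected cells to 406 ± 97.1 with non-cloaked mRNA and 421 ± 44.4 with strong-cloaked mRNA. IGFBP4 rose by 1.21 ± 0.13, from 304 ± 5.59 to 674 ± 61.2 and 755 ± 15.1 CPM in the same groups, and IGFBP6 rose by 1.27 ± 0.21. In weak-cloaked replicate 1, IGFBP1 was at 637 CPM and IGFBP4 at 498 CPM, between untransfected cells and the other transfected libraries. IRS1, an adaptor of the receptor, fell by 0.64 ± 0.15. The receptors IGF1R (-0.14 ± 0.13, adjusted p = 0.47) and IGF2R (-0.06 ± 0.16, adjusted p = 0.82) were not called. With library totals the list had 2 higher and 3 lower and a median of -0.11. Without untransfected replicate 1 or 2 it had 2 higher, and without untransfected replicate 3 it had 1 lower.

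Among fetal liver and oncofetal genes, 3 of 16 were higher and 4 lower, with a median of -0.08, near that of all genes. H19 lies 127641 bp from IGF2 and rose by 0.82 ± 0.13 (adjusted p = 0.0018), from 50.5 ± 8.09 to 81.4 ± 8.83 CPM with non-cloaked and 106 ± 17.2 CPM with strong-cloaked mRNA (SD, n = 3). KRT19, a keratin of bile duct and progenitor cells, rose by 1.15 ± 0.13. PEG10 and PEG3, both imprinted genes, fell by 1.15 ± 0.18 and 0.91 ± 0.22. AFP and GPC3, the oncofetal markers among the members, were not called. With library totals the list had 2 higher and 5 lower and a median of -0.31, and without untransfected replicate 3 it had 3 higher and 1 lower. IGF2-AS, on the opposite strand of IGF2, had 2.93 to 5.5 CPM of library totals and was not called (adjusted p = 0.93).

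Liver transcription factors and AFP regulators had 3 of 28 genes higher and 9 lower, with a median of -0.21. HNF4A fell by 0.66 ± 0.14 in log2, from 253 ± 27.5 CPM in untransfected cells to 182 ± 11.3 with non-cloaked, 163 ± 34.7 with weak-cloaked, 132 ± 9.21 with medium-cloaked and 166 ± 39.8 CPM with strong-cloaked mRNA (SD, n = 3). It had its lowest mean in the medium-cloaked group, in which ALB and AFP had their highest. ONECUT1 and NR5A2, activators of liver genes with AFP among them, fell by 1.72 ± 0.28 and 1.17 ± 0.19, at low levels of 4.05 and 7.26 CPM in untransfected cells. ZHX2, a repressor of AFP, was not called (0.08 ± 0.19, adjusted p = 0.81). With library totals 2 were higher and 14 lower, with a median of -0.43. Without untransfected replicate 1, 2 or 3 the list had 1 higher, with 6 to 7 lower.

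**Figure D4:**
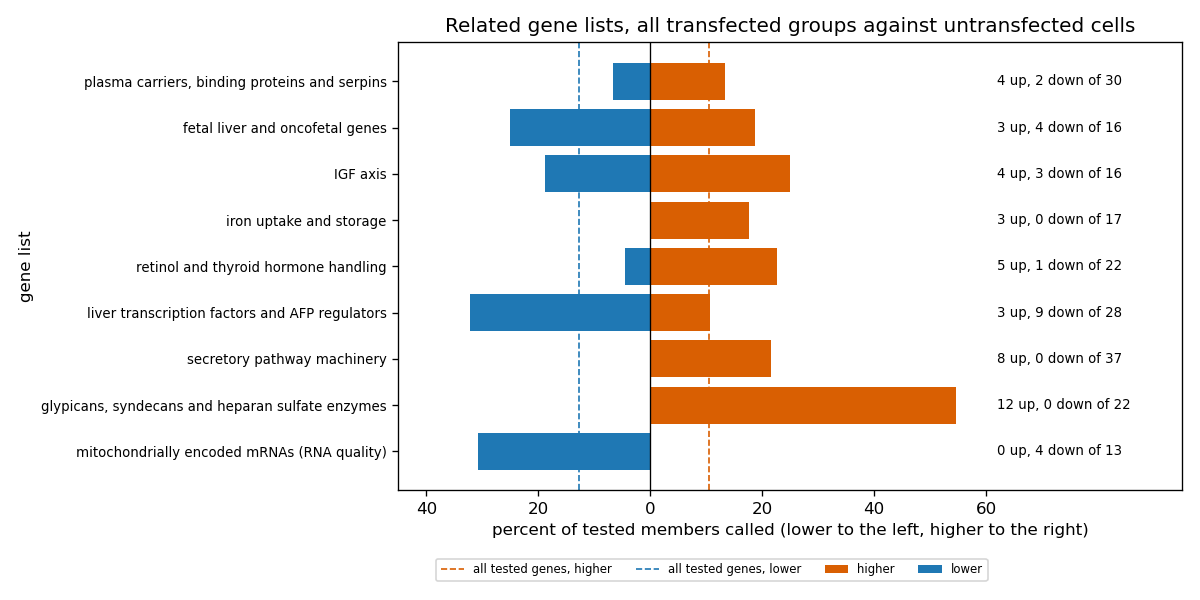
Percent of the tested genes of each related list called higher (bars to the right) or lower (bars to the left) in all transfected groups against untransfected cells, with the shares of all tested genes (10.4% and 12.7%) as dashed lines. Glypicans, syndecans and heparan sulfate enzymes have the longest bar to the right (12 of 22), and liver transcription factors the longest to the left (9 of 28).

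Genes that handle the ligands of TF and RBP4 were described in the same way. Of 17 iron genes 3 were higher and 0 lower, with a median of -0.18. FTL and FTH1, the ferritin chains that store iron, rose by 1.00 ± 0.15 and 0.61 ± 0.15, FTL from 5428 ± 601 to 10860 ± 1650 CPM (SD, n = 3 and 12), and BMP6 rose by 0.70 ± 0.16. The transferrin receptors TFRC (-0.15 ± 0.13, adjusted p = 0.44) and TFR2 (-0.02 ± 0.14, adjusted p = 0.92) were not called. With library totals the same list had 3 higher and 5 lower. Without weak-cloaked replicate 1 it had 3 higher and 3 lower. Of 22 genes of retinol and thyroid hormone handling 5 were higher and 1 lower, with a median of 0.16. With library totals 3 were higher and 4 lower, with a median of -0.07. Without untransfected replicate 1 1 was higher and 1 lower, without untransfected replicate 2 the values were 3 and 1, and without untransfected replicate 3 they were 4 and 0. Without weak-cloaked replicate 1, 6 were higher and 3 lower. RETSAT, a retinol saturase, rose by 0.47 ± 0.11 and RARA, a retinoic acid receptor, by 0.62 ± 0.16. LRAT, which esterifies retinol, fell by 1.85 ± 0.46, but from 1.44 ± 1.45 CPM with 1 untransfected library at 3.10 CPM.

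The secretory pathway that exports these proteins had 8 of 37 genes higher and 0 lower, with a median of 0.18. KDELR3, a receptor that returns proteins to the endoplasmic reticulum, rose by 0.66 ± 0.10 and SEC61G, of the translocation channel, by 0.62 ± 0.10. SRPRA, the receptor for signal-recognition particles, rose by 0.47 ± 0.10 and SEC11A, of the signal peptidase, by 0.35 ± 0.08. The counts and the sign of the median depended on the correction. With library totals 3 were higher and 5 lower, and SEC11A was not called (adjusted p = 0.13). The list median was then -0.05, still above the -0.28 of all genes with that scaling. With length and GC offsets the list had 20 higher and 0 lower, where 4457 of all genes were called in either direction. Without untransfected replicate 2 it had 4 higher, and 11 without weak-cloaked replicate 1.

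GPC3 was not called, but other cell surface proteoglycans and the enzymes that build heparan sulfate had 12 of 22 genes higher and 0 lower, with a median of 0.44. SDC4, a syndecan, rose by 1.51 ± 0.18, from 163 ± 20.1 to 391 ± 39.2 CPM with non-cloaked and 511 ± 59.2 CPM with strong-cloaked mRNA. Among the glypicans, GPC1 rose by 1.04 ± 0.13, from 23.6 ± 0.59 to 48.1 ± 3.19 CPM with non-cloaked mRNA, and GPC2 rose by 1.55 ± 0.28. GPC4, next to GPC3 on the X chromosome, rose by 0.64 ± 0.16 (adjusted p = 0.012). XYLT2, which starts the sugar chains, rose by 0.50 ± 0.10. With library totals 7 were higher and 1 lower, with a median of 0.21. Without untransfected replicate 1 the list had 7 higher and 0 lower. In weak-cloaked replicate 1, SDC4 was at 286 CPM and GPC1 at 32.5 CPM, both below the other transfected libraries.

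No gene of these lists was called in edgeR between any cloaked group and the non-cloaked group. Mitochondrially encoded mRNAs, followed as a sign of RNA quality, had 0 of 13 higher and 4 lower (MT-ND4, MT-CO3, MT-ATP8 and MT-ND3), with a median of -0.07. With library totals 8 were lower, with a median of -0.29, near the -0.28 of all genes with that scaling. Without untransfected replicate 1 or 3, 1 was lower. MT-ND4 had 4.54 ± 7.65 CPM in untransfected cells, a spread larger than its mean, with 1 library at 13.4 CPM and the lowest at 0.109 CPM. In transfected cells it was near the floor, at 0.158 ± 0.026 CPM. Of the marker lists, hepatocyte genes had 1 of 10 higher (APOA1, 0.36 ± 0.12) and 3 lower (APOB, -0.53 ± 0.14, and HNF4A among them). The APOA1 call was lost with library totals (0.13, adjusted p = 0.26) and with offsets (0.15, adjusted p = 0.19), and that of APOB with offsets (-0.16, adjusted p = 0.16). With library totals the hepatocyte list had 0 higher and 5 lower. Without untransfected replicate 1, 2 or 3 it had 0 higher, and without weak-cloaked replicate 1 it had 2. The sum of leukocyte markers, mostly LYZ, was 1403 to 1869 CPM of library totals in untransfected and 1104 to 1385 in transfected libraries, with 2 of 8 tested genes called higher (CD68, 1.87 ± 0.40, and CD74, 0.55 ± 0.13), and 1 without untransfected replicate 2. The endothelial sum was 7.01 to 8.75 and 10.1 to 14.7 (TIE1 higher, VWF lower), the fibroblast sum 25.1 to 54.9 and 18.0 to 62.9 (PDGFRB lower), and the sum of other epithelial markers 8.26 to 13.2 and 13.0 to 21.6 (KRT17 higher). The part of these differences in the results for the 10 genes was not tested.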

How the data were processed

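The authors deposited 1 matrix of raw counts per gene symbol for 15 libraries. Per the labels' protocols, these were poly(A)-selected, strand-specific libraries read as 150 bp pairs from RNA with a RIN of at least 7. The submitters' processing notes name HISAT2, HTSeq, DESeq2 1.46.0, R 4.4.2 and GRCh38. For the annotation release, the strand option of HTSeq and the matrix filter, a value was not given in the sources used here, so overlapping genes are uncertain.

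Tests used edgeR 4.0.16 (with limma 3.58.1, in R 4.3.3). After filterByExpr and TMM scaling, edgeR's robust quasi-likelihood fit took a separate mean for each group over the 15 libraries. A gene was called at a Benjamini-Hochberg adjusted p below 0.05 over the 18380 genes tested. Each ± on a log2 fold change is its standard error. Alternatives were other scalings and filters, length and GC offsets, the replicate number as a block, the compared groups alone, DESeq2 1.42.0, and leaving out each library. Positions and lengths came from GENCODE 29 and promoters from RefSeq.

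The members and lists were chosen with earlier results of these data known. All members were named, and of each list up to 4 called genes of smallest p over all transfected groups, plus the 3 genes most correlated with ALB and with AFP over the 15 libraries, where mean log2 CPM was at least 1. A few of the genes so chosen are not reported here. Other genes (receptors, neighbours, ZHX2 and uncalled genes) were named after their values were seen. The labels call the replicates biological without saying that they came from separate passages or days, so p-values measure the spread between these samples. Replicates differed by far more than sampling noise.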

Additional observations from a re-analysis of the deposited data

How the results depend on the processing

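IGF2 kept its call over all transfected groups and with strong cloaking in each of the 15 fits that left out 1 library, and in every other setting run. Across all settings, 1863 member values kept their side of the threshold, 26 gained a call and 21 lost one. Of the 1863, 1770 kept their sign and 93, none of them called, changed it. The number of members called against untransfected cells moved as follows. For non-cloaked mRNA it was 0, and 1 with total-count scaling (AFP, lower), with the replicate block (RBP4), with the compared groups alone and with DESeq2. For medium cloaking it was 1, and 0 with total-count scaling, 2 with the replicate block and with DESeq2, and 3 with length and GC offsets, with these offsets and the replicate block, and with the compared groups alone. For weak cloaking it was 1, and 2 with offsets and the replicate block, and 0 with the compared groups alone. For strong cloaking it was 3, and 4 with total-count scaling, which added AFP as lower. For all transfected groups it was 3, and also 3 with total-count scaling, but the genes differed. There AFP was called lower, RBP4 and IGF2 were called higher, and SERPINA1 was not called. Leaving out 1 library gave 1 to 4 calls for all transfected groups, 1 to 4 for strong, 0 to 3 for medium, 0 to 4 for weak and 0 to 2 for non-cloaked mRNA. It gave 0 to 0 for each cloaked group against the non-cloaked one and for any difference among the 4 transfected groups. The cause of these moves was not tested.

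Counts over all genes moved more. DESeq2 called 2968, 2012, 3794 and 4202 genes for non-cloaked, weak, medium and strong mRNA against untransfected cells, where edgeR called 1195, 605, 2524 and 2776. It called 21, 76 and 15 for weak, medium and strong against non-cloaked mRNA, and 55 for any difference among the 4 groups. For weak cloaking against untransfected cells the count was 1259 with offsets, 1530 with offsets and the replicate block and 4 with the compared groups alone. With the compared groups alone, strong against non-cloaked mRNA gave 2 and the test among the 4 groups gave 3. Leaving out 1 library gave 2148 to 5938 calls for all transfected groups, 119 to 3107 for non-cloaked, 114 to 4007 for weak, 785 to 3789 for medium and 728 to 4191 for strong mRNA against untransfected cells. The highest count of each of these 5 comparisons came without weak-cloaked replicate 1. The lowest came without untransfected replicate 2 for all transfected groups, and without non-cloaked replicate 2, weak-cloaked replicate 2, medium-cloaked replicate 2 and strong-cloaked replicate 3 for the grades. Over all transfected groups, total-count scaling called 945 higher and 4358 lower, against 1906 and 2336. Pairing by replicate number was looked at in log2 CPM after each group's mean was subtracted, over genes with a mean of at least 5 CPM. What remained correlated weakly between same-numbered samples: 16.7% of such pairs were above 0.1 (range -0.211 to 0.355). Among libraries of other groups, 6 of 15 libraries correlated best with their own number. This cannot show that the samples were unpaired, and the labels do not say. With the replicate block, all-gene calls against untransfected cells were 1424, 816, 2658 and 2958 for non-cloaked, weak, medium and strong mRNA. Each library had 57128519 counts or more, of which TTR had 196 to 483 and GPC3 621 to 1085. Whether depth or the spread between replicates limits what could be detected was not tested.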

Other observations

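Wide differences between replicates, as in TF and AMBP, also occurred in other genes of the lists. Among 184 genes of the related lists with a mean of at least 5 CPM, 21 differed by more than 3-fold between replicates of at least 1 group, a threshold chosen after the values were seen. ORM2, an orosomucoid of the acute phase, ran from 0.537 to 143 CPM over the libraries and differed by up to 110-fold within a group. ITIH2, a heavy chain that pairs with the bikunin encoded by AMBP, ran from 212 to 844 CPM and differed by up to 3.62-fold. IGF2BP1, an oncofetal RNA-binding protein, ran from 6.14 to 59.1 CPM and differed by up to 8.88-fold.

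Genes next to the members, named after their values were seen, moved in both directions. CXCL8, the nearest gene beyond AFP with at least 1 CPM, rose by 1.70 ± 0.24 in transfected cells (adjusted p = 0.0009) at 284331 bp from AFP, and DNAJB11, next to AHSG, rose by 0.40 ± 0.09 (adjusted p = 0.0087), with values of 0.17 with library totals and 0.80 with length and GC offsets. TOPBP1, next to TF, fell by 0.85 ± 0.18 (adjusted p = 0.0058), and FRA10AC1, next to RBP4, fell by 1.08 ± 0.27 (adjusted p = 0.013). The FRA10AC1 call was lost with length and GC offsets (-0.47, adjusted p = 0.14).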
